A study of Mus musculus with 8 samples.

Results

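Levels of 10 imprinted growth genes were followed in mouse liver: H19, Igf2, Dlk1, Meg3, Peg3, Plagl1, Cdkn1c, Grb10, Mest and Phlda2. They are 10 of the 37583 genes in the deposited count table, found there by name, and all 10 were among the 17362 that passed the filter on low counts. The choice was made with values of these libraries known: H19 and Igf2 differ within a group, and Phlda2 had already passed a test here, so these 3 are described without a test. Which values put the other 7 on the list, if any, is not stated, so their adjusted p-values are not independent support for the choice.

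RNA was sequenced from livers of C57BL6/CBA mice at 8 months of age, in 8 libraries of 3 groups. WT held 2 libraries of wild-type mice without a labelled agent. PR-SET7_LOBE held 4 libraries of genotype PR-SET7_LX_ALB_CRE, and the series' design text says that PR-SET7, a histone H4 methyltransferase, was inactivated in hepatocytes. ALB_CRE is the usual name of Cre recombinase under the albumin promoter, which the labels do not spell out, and neither LX nor LOBE is explained. DEN_WT held 2 libraries of wild-type mice given the liver carcinogen diethylnitrosamine intraperitoneally on postnatal day 15, at a dose labelled 25 ml per kg with no concentration. The labels do not say that the libraries of a group come from separate animals. The count columns are marked BR with a number, which may stand for biological replicate but is not spelled out. The p-values therefore measure the spread between these libraries, which may be technical. No date or run is named. Sample numbers run on from WT to PR-SET7_LOBE, whereas those of DEN_WT lie apart from them. A batch that follows the groups cannot be told apart from them.

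An imprinted gene is read from the copy of 1 parent, set by DNA methylation laid down in the germ line. H19, a noncoding RNA, and the growth factor Igf2 share enhancers and a methylated control region, which keeps H19 on the maternal and Igf2 on the paternal copy. Meg3 and Dlk1 form a similar pair on another chromosome. Most of these genes are abundant in fetal liver and fall after birth, and H19 and Igf2 are known for their return in liver tumors. Counts per gene do not tell the parental copies apart, so nothing here measures imprinting itself.

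H19 and Meg3 transcripts also carry microRNA hairpins, and Igf2 and Mest host microRNAs in introns. The mature microRNAs of H19 and Igf2 are shown because they are cut from the 2 transcripts with the widest spread; the capitals are the seed, bases 2 to 8, which pairs with targets. Sequences are from RefSeq, build GRCm38.p6.
mmu-miR-675-5p: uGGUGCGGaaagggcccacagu
mmu-miR-675-3p: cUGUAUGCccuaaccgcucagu
mmu-miR-483-5p: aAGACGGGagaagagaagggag
mmu-miR-483-3p: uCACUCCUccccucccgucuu
The first pair lies within H19 (minus strand, chr7:142577112-142577133 and chr7:142577078-142577099), the second within Igf2 (minus strand, chr7:142654968-142654989 and chr7:142654932-142654952). No 2 of the 4 share a seed. The libraries were made from messenger RNA captured by its poly(A) tail and do not measure mature microRNAs. The Mir675 entry of the table holds 0 counts in every library, including those with many H19 counts. It lies within H19 on the same strand. How reads shared by overlapping entries were assigned was not found, so this 0 says nothing of the microRNA.

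RefSeq promoter windows on GRCm38.p6 matched 8 of the 10 genes, all but H19 and Cdkn1c. Below are the 250 bases before the start site of genes whose levels are set side by side later, with CpG dinucleotides, the sites of DNA methylation, in capitals; where a gene has several starts, the window with most CpG is shown. Igf2, Dlk1 and Meg3 come first, then Peg3, Grb10 and Mest.
Igf2, minus strand, chr7:142658805-142659054: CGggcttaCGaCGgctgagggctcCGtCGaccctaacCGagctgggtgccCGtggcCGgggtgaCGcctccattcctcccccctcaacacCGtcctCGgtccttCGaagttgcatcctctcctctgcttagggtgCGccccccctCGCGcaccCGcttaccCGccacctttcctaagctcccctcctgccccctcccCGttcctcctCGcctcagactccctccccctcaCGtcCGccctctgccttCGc
Dlk1, plus strand, chr12:109452573-109452822: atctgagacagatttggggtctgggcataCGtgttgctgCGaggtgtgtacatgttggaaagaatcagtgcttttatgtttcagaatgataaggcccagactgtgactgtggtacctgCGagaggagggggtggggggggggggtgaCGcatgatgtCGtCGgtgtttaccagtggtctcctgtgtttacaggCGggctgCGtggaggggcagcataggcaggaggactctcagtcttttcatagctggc
Meg3, plus strand, chr12:109540746-109540995: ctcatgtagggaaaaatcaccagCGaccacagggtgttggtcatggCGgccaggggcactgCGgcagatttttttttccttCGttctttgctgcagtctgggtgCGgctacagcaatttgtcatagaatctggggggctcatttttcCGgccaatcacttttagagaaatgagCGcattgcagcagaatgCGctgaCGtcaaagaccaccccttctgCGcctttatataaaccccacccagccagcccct
Peg3, minus strand, chr7:6730420-6730669: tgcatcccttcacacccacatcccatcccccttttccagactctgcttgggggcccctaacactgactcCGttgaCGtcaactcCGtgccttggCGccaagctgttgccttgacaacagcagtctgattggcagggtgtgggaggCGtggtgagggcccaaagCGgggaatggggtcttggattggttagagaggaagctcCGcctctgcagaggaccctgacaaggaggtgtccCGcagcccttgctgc
Grb10, minus strand, chr11:12037421-12037670: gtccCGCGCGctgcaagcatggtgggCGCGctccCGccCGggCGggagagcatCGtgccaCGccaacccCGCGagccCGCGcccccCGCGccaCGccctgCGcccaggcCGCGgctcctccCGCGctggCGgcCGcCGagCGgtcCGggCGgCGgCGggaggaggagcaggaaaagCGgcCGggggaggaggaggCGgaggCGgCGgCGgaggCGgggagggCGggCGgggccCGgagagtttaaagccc
Mest, plus strand, chr6:30737800-30738049: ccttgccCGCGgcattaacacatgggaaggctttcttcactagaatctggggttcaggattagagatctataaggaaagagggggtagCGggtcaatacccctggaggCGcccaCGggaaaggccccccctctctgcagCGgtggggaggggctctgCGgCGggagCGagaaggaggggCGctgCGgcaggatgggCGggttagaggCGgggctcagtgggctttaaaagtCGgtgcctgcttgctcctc
The windows of Igf2, Dlk1, Meg3, Peg3, Grb10 and Mest hold 22, 8, 10, 8, 40 and 14 CpG, against a median of 6 over 32817 distinct windows of the same length. The median covers all windows, whereas genes with several starts are shown by their richest, so that choice raises their counts beside it. The windows not shown hold 10, 6 and 1 CpG for Igf2, 0 for Meg3, 8 for Grb10, and 14 and 7 for Mest. Of all windows, 98.7% hold fewer CpG than that of Grb10. The letters TGACGTCA, the cAMP response element, occur in the Meg3 and Peg3 windows, on both strands because the motif is its own reverse complement, and in 1.55% of all windows. TATAAA on either strand is in the Meg3 window and in 12.4% of all windows, and GGGCGG on either strand is in those of Igf2, Grb10 and Mest and in 32.7% of all. These are matches of letters only, and methylation or binding at them was not measured.

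Values are the deposited whole-number counts and CPM, counts scaled to equal depth. CPM used the library size scaled by TMM, a method that removes differences in composition between libraries. Total counts ran from 7305595 in PR-SET7_LOBE replicate 3 to 16108081 in WT replicate 2. The TMM factors of these libraries were 1.48 and 0.674, and all 8 scaled sizes lay between 10448961 and 11322325. TMM thus made the sizes nearly equal, which is also what it would do with counts already scaled between libraries. Whether such scaling had been done before deposit was not found in the sources at hand. The limit that a count of 0 allows, 3 counts, corresponded to 0.265 to 0.287 CPM. Amplified reads carry no molecular identifiers, so this limit and the 95% intervals given here cover counting error only. Both also take the deposited counts as unscaled reads, and would not hold as given if the counts had been scaled. Across genes, PR-SET7_LOBE replicate 1 lay closer to WT (r = 0.940 and 0.907) than to 2 of the 3 other libraries of its group (r = 0.915, 0.882 and 0.872); each result of the group is therefore also given without it where its call changes. Setd8, the gene of PR-SET7, was at 46.5 to 62.6 CPM in PR-SET7_LOBE and at 51.9 and 56.0 CPM in WT (log2 difference -0.01, adjusted p = 0.994 by edgeR), and since the deleted exons are not given and liver RNA also comes from cells other than hepatocytes, this does not check the genotype labels. Hepatocyte markers were abundant in every library but not equal: Alb, Apoa1, Ttr, Serpina1c, Cps1 and Hnf4a summed to 43112 CPM or more in each. The sums were 96121 and 119261 CPM in WT and 126070 and 148242 CPM in DEN_WT. In PR-SET7_LOBE replicates 1 to 4 they were 68920, 157664, 43112 and 104784 CPM.

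H19 and Igf2 were nearly silent in WT, were at 2030 CPM or more in 2 PR-SET7_LOBE libraries and at 109 CPM or less in the other 2. H19 (ENSMUSG00000000031; mm9 chromosome 7, 149761434 to 149764048, minus strand) had 4 counts in each WT library. In PR-SET7_LOBE it had 74093, 98126, 104 and 1192 counts in replicates 1 to 4, or 6959, 9387, 9.65 and 109 CPM. In DEN_WT it had 6504 and 1566 counts, or 576 and 138 CPM, against 0.383 and 0.369 CPM in WT. Every library of PR-SET7_LOBE and DEN_WT was above both WT libraries, and the DEN_WT values lay between the low and the high pair of PR-SET7_LOBE, so those 2 groups overlap.

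Against the 8 WT counts in all, the H19 level was 18523 times that of WT in replicate 1 (95% counting interval 9400 to 42906) and 24987 times in replicate 2 (12681 to 57879). In replicates 3 and 4 it was 25.7 times (12.6 to 61.1) and 289 times (146 to 671), beside 368 times (186 to 854) in DEN_WT replicate 2. A single noncoding RNA thus held 0.609% and 0.973% of all counts in replicates 1 and 2. The mean in PR-SET7_LOBE, 4116 ± 4788 CPM (SD, n = 4), describes none of its libraries. In bulk RNA such a level may come from few cells with much of the transcript or from many with little, and these cannot be told apart.

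Igf2, the fetal insulin-like growth factor (ENSMUSG00000048583; chromosome 7, 149836673 to 149852721, minus strand), had 12 and 16 counts in WT. Its counts in PR-SET7_LOBE replicates 1 to 4 were 25753, 21224, 19 and 62, or 2419, 2030, 1.76 and 5.65 CPM. In DEN_WT they were 120 and 43, or 10.6 and 3.80 CPM, against 1.15 and 1.48 CPM in WT. Replicates 1 and 2 were thus high for both genes, but replicate 3 was scarcely above WT for Igf2: its ratio to WT was 1.34, with a counting interval of 0.708 to 2.49 that includes 1.

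The balance between the 2 neighbors differed by group. H19 had 0.333 and 0.250 counts per Igf2 count in WT, 2.88, 4.62, 5.47 and 19.2 in PR-SET7_LOBE, with 54.2 and 36.4 in DEN_WT. DEN_WT therefore had the highest share of H19 relative to Igf2, above every PR-SET7_LOBE library, although its H19 level was far below that of replicates 1 and 2. The WT ratios rest on 4 H19 counts each.

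**Figure D1:**
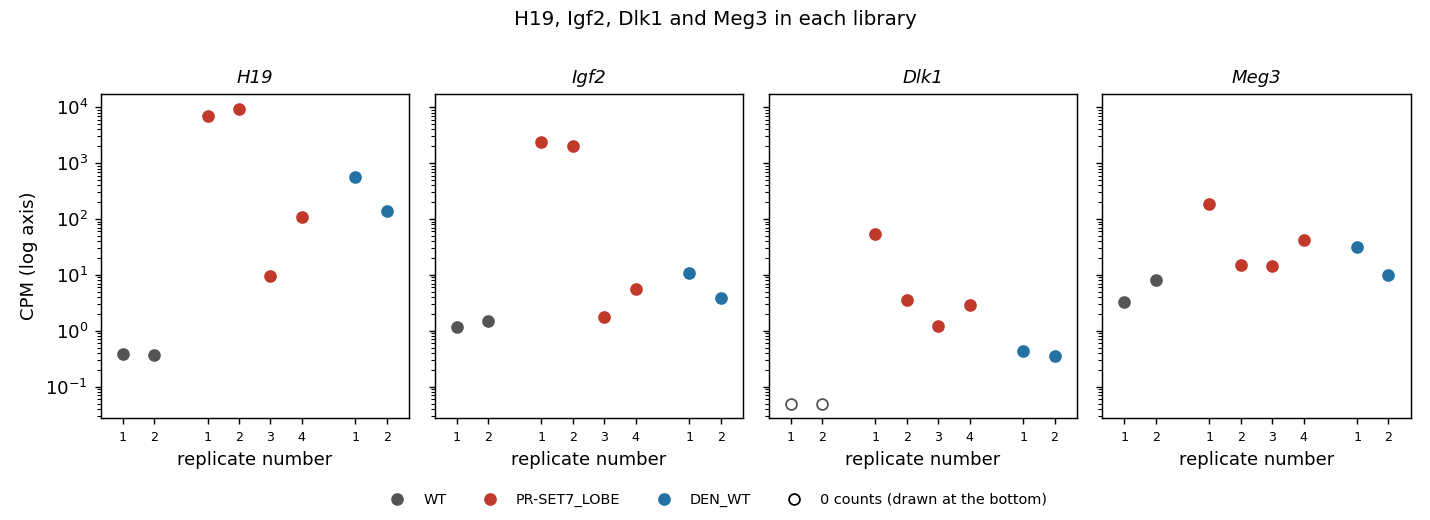
Level of H19, Igf2, Dlk1 and Meg3 in each library, in CPM on a log axis, 1 point per library with its replicate number below; open points are libraries with 0 counts, drawn at the bottom. H19 and Igf2 are at 2030 CPM or more in PR-SET7_LOBE replicates 1 and 2 and at 109 CPM or less in replicates 3 and 4, while Dlk1 and Meg3 are highest in replicate 1 only.

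Igf2 and H19 had the widest spread of all tested genes within PR-SET7_LOBE, which is how they were chosen and is given as a description. Highest minus lowest log2 CPM was 10.28 for Igf2 and 9.90 for H19, against a median of 1.48 over the 17362 genes. The next widest were Saa2, an acute-phase protein (8.37), Ptgds, a prostaglandin synthase (8.26), and Sult2a2, a sulfotransferase (7.83), named here after their values were seen. Dlk1 ranked 69th (5.26) and Meg3 610th (3.67), and the other 6 members lay between 1.10 and 2.74. Within DEN_WT, where the median was 0.27, H19 ranked 151st (2.06), Meg3 262nd (1.65) and Igf2 402nd (1.44), in each case with replicate 1 above replicate 2.

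**Figure D2:**
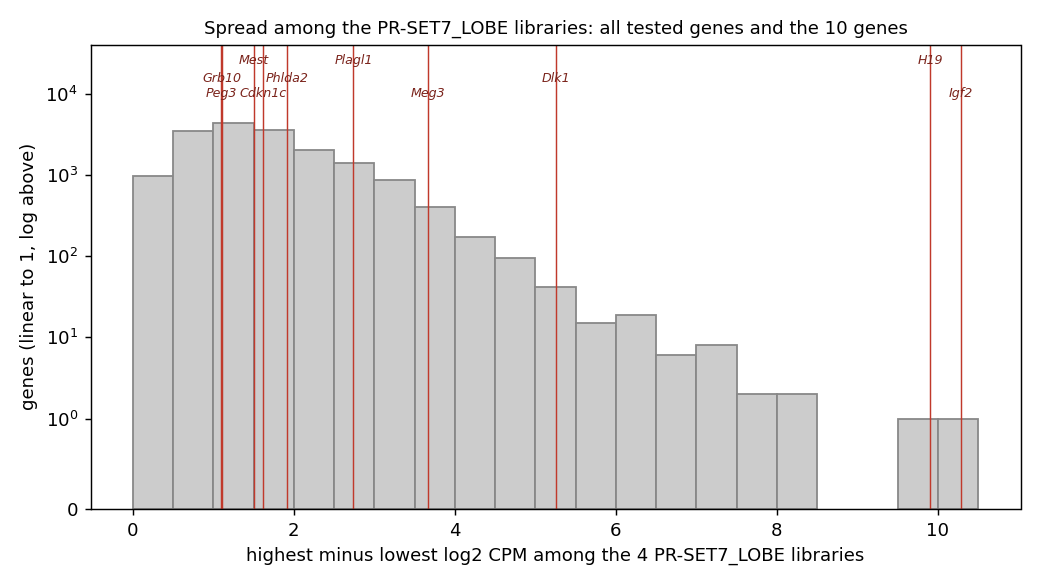
Number of tested genes by their spread among the 4 PR-SET7_LOBE libraries, as highest minus lowest log2 CPM in steps of 0.5 (vertical axis linear up to 1 gene and logarithmic above), with red lines at the 10 genes. Igf2 at 10.28 and H19 at 9.90 lie apart from the next gene at 8.37, and Peg3 and Grb10 lie below the median of 1.48.

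Igf2as and Nctc1, both of this region, were highest in PR-SET7_LOBE replicate 1, whereas the neighbors Gm14492 and Gm7290 were highest in PR-SET7_LOBE replicate 4 and WT replicate 2. Igf2as, annotated on the opposite strand across the start of Igf2, had 2 and 0 counts in WT, 185, 30, 9 and 12 in PR-SET7_LOBE and 1 in each DEN_WT library. Nctc1, a noncoding muscle transcript near the shared enhancers, had 0 and 1 counts in WT, 29, 14, 8 and 10 in PR-SET7_LOBE, with 1 and 0 in DEN_WT. Both had at most 1 count per DEN_WT library, unlike H19 itself, at 576 and 138 CPM there. The strand setting of the counting is not given in the sources used here, so reads of Igf2 and Igf2as cannot be told apart.

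Of 15 genes within 200 kb of H19 and Igf2, 7 could be tested. In edgeR's quasi-likelihood fit over all genes with Benjamini-Hochberg adjustment, Igf2as was higher in PR-SET7_LOBE than in DEN_WT (log2 difference 5.80, SE 1.67, adjusted p = 0.0484), and Nctc1 did not pass (adjusted p = 0.0569). The Igf2as call was lost in 8 of 14 alternatives (adjusted p 0.00130 to 0.306), among them the fits without either WT library, without PR-SET7_LOBE replicate 1 or 2, and without either DEN_WT library. None of the 7 passed in either comparison with WT, where 2 were under an unadjusted p of 0.05 in each and DESeq2 called 1 for PR-SET7_LOBE and 0 for DEN_WT, and 1 passed in DEN_WT without PR-SET7_LOBE replicate 1. The median log2 difference of the 7 was 0.74 in PR-SET7_LOBE and -0.31 in DEN_WT, both against WT, beside 0.11 and 0.06 for all genes.

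The genes most like H19 over the 8 libraries, by Pearson correlation of log2 CPM among 11183 genes with a mean log2 CPM of at least 1, were Tctn2, Cgref1, Bex2, Ccnd1 and Tff3, with r from 0.970 to 0.950. Ccnd1, cyclin D1, was at 23.3 and 15.9 CPM in WT, 149, 166, 62.8 and 75.1 CPM in PR-SET7_LOBE, with 72.4 and 55.7 CPM in DEN_WT. Tff3, a secreted trefoil peptide, was at 3.64 and 2.03 CPM in WT, 218, 1866, 35.9 and 118 CPM in PR-SET7_LOBE, with 128 and 123 CPM in DEN_WT. By Spearman correlation Tff3 came first and was the only one of the 5 to stay. The members were less like H19: Igf2 ranked 36th (r = 0.869, rho = 0.929), Meg3 224th (r = 0.725) and Phlda2 324th (r = 0.681). Dlk1 correlated with H19 at r = 0.788 (rho = 0.786) but is unranked because its mean level is under that limit, as are Plagl1 and Mest. These correlations are all over the same 8 libraries.

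For Igf2 the 5 genes were Sertad1, Capn10, Homer3, Tdp1 and Bax, with r from 0.953 to 0.922, none of which is on the list for H19. Sertad1, a cofactor of cell cycle transcription, was at 12.5 and 10.6 CPM in WT, 32.0 and 25.0 CPM in replicates 1 and 2 of PR-SET7_LOBE, 11.5 CPM or less in replicates 3 and 4, and 11.5 and 11.9 CPM in DEN_WT. It was highest in replicates 1 and 2, by a much smaller factor than Igf2. By Spearman correlation Tctn2 came first and none of the 5 stayed.

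Dlk1 and Meg3 followed replicate 1 rather than both high libraries. Dlk1, a membrane protein of fetal hepatoblasts (ENSMUSG00000040856; chromosome 12, 110691033 to 110701546, plus strand), had 0 counts in both WT libraries. It had 564, 37, 13 and 32 counts in PR-SET7_LOBE, or 53.0, 3.54, 1.21 and 2.92 CPM, and 5 and 4 counts in DEN_WT, or 0.443 and 0.353 CPM. Set against 3 counts over both WT libraries, Dlk1 was at least 376-fold higher in replicate 1 and at least 8.57-fold higher in replicate 3, the lowest of the group. All PR-SET7_LOBE libraries exceeded both DEN_WT libraries.

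Meg3, a maternally expressed noncoding RNA (ENSMUSG00000021268; chromosome 12, 110779211 to 110809936, plus strand), was detected in WT at 34 and 88 counts, or 3.25 and 8.11 CPM. It had 1957, 157, 154 and 457 counts in PR-SET7_LOBE, or 184 CPM in replicate 1 and 14.3 to 41.6 CPM in the others, and 362 and 114 in DEN_WT, or 32.1 and 10.1 CPM. The groups do not overlap with WT, but PR-SET7_LOBE and DEN_WT overlap. Its log2 difference from WT was 3.48 in PR-SET7_LOBE (SE 1.15, adjusted p = 0.192 by edgeR) and 1.89 in DEN_WT (SE 1.14, adjusted p = 0.295), and without PR-SET7_LOBE replicate 1 the first was 2.06 (adjusted p = 0.0740). Single libraries moved the DEN_WT value too, to 0.84 without DEN_WT replicate 1 (adjusted p = 0.779) and to 2.79 without WT replicate 2 (adjusted p = 0.365).

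Dlk1 did not pass in any of the 3 comparisons in the fit over all genes (adjusted p = 0.142 for PR-SET7_LOBE against WT, 0.357 for DEN_WT against WT and 0.0859 for PR-SET7_LOBE against DEN_WT, by edgeR). Without PR-SET7_LOBE replicate 1 it passed against WT in both groups (adjusted p = 0.0213 and 0.0453), and without replicate 3 it passed between PR-SET7_LOBE and DEN_WT (0.0472). Meg3 had 3.47 and 4.24 counts per Dlk1 count in PR-SET7_LOBE replicates 1 and 2, 11.8 and 14.3 in replicates 3 and 4, and 72.4 and 28.5 in DEN_WT. Both DEN_WT ratios were above those of the PR-SET7_LOBE libraries, and in WT, where Dlk1 had 0 counts, no ratio can be given. The DEN_WT ratios rest on 5 and 4 Dlk1 counts.

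Other measured transcripts of the Dlk1-Dio3 domain were low in WT as well. Dio3 was too scarce to be tested, with 5 counts in all in WT, 14 in PR-SET7_LOBE and 9 in DEN_WT. Rian and Mirg, maternally expressed noncoding RNAs, had 2 and 9, and 0 and 0 counts in WT. Rian had 176, 30, 41 and 123 counts in PR-SET7_LOBE, with 258 and 48 in DEN_WT, and Mirg had 31, 9, 5 and 17, and 12 and 4. Both were above WT in every library of the other groups, with replicate 1 above replicate 2 in DEN_WT, as for Meg3. Rtl1, a paternally expressed retrotransposon-derived gene, had 18 and 9 counts in WT, 33, 8, 37 and 49 in PR-SET7_LOBE and only 5 and 2 in DEN_WT, below WT.

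Rian rose in DEN_WT against WT (log2 difference 4.69, SE 1.16, adjusted p = 0.0304 by edgeR), and Rtl1 was higher in PR-SET7_LOBE than in DEN_WT (3.20, SE 0.91, adjusted p = 0.0464). The Rian call was lost without either WT library or without DEN_WT replicate 1 (adjusted p over 15 alternatives 0.000135 to 0.197). That of Rtl1 was lost in 10 of 15 (0.0100 to 0.422), including the fits without any 1 library of WT or DEN_WT and without PR-SET7_LOBE replicate 1, 3 or 4. Antisense transcripts overlap Rtl1, so its counts are uncertain. Of the 85 entries within 200 kb of Dlk1 and Meg3, most of them small RNAs, only Rian, Mirg and Rtl1 could be tested; in PR-SET7_LOBE against WT none passed, 2 were under an unadjusted p of 0.05, DESeq2 called 2, and 1 passed without PR-SET7_LOBE replicate 1, as did 2 in DEN_WT.

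**Figure D3:**
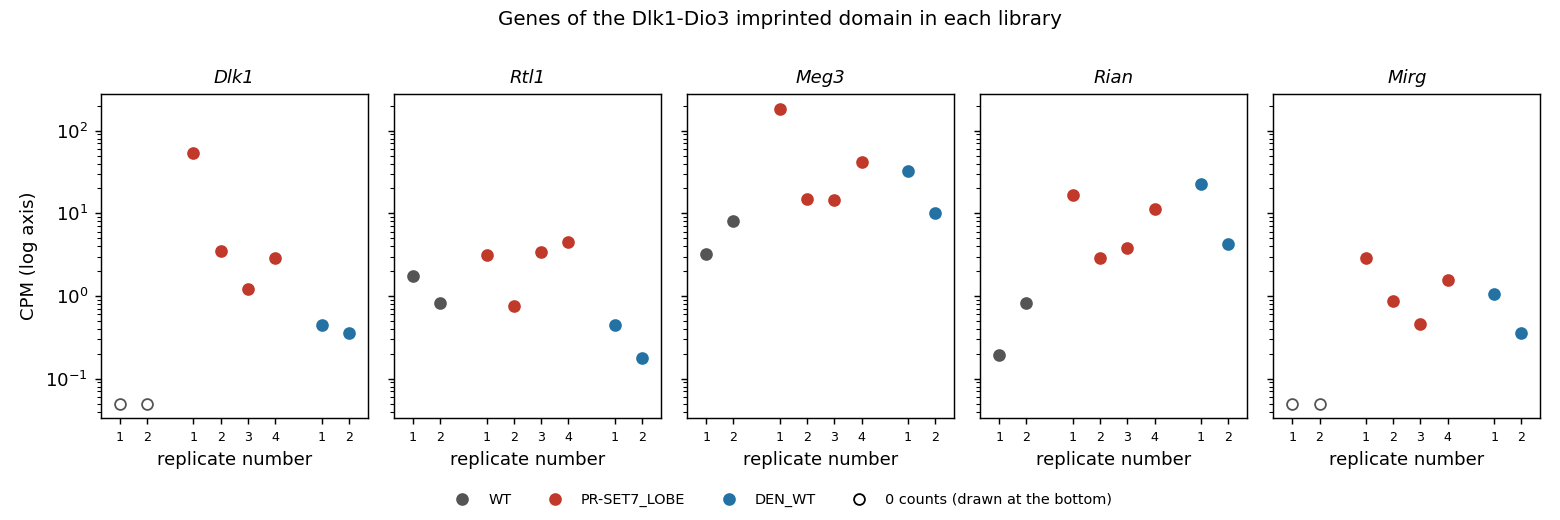
Level of Dlk1 and Rtl1, expressed from the paternal copy, and of Meg3, Rian and Mirg, expressed from the maternal copy, in each library, in CPM on a log axis; open points are libraries with 0 counts, drawn at the bottom. The maternal transcripts are above WT in both DEN_WT libraries. So is the paternal Dlk1, at 5 and 4 counts against 0 in each WT library, while Rtl1 is lowest there, at 5 and 2 counts.

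Peg3, Grb10 and Mest formed a second pattern, with levels ordered from WT through PR-SET7_LOBE to DEN_WT and no overlap between groups. Peg3, a zinc-finger protein (ENSMUSG00000002265; chromosome 7, 6656603 to 6683132, minus strand), had 40 and 13 counts in WT, 110, 91, 203 and 172 in PR-SET7_LOBE, with 292 and 343 in DEN_WT. These are 3.83 and 1.20, 10.3, 8.71, 18.8 and 15.7, and 25.9 and 30.3 CPM. The Peg3 levels within a group differed by at most 3.19-fold, far less than those of H19. Peg3 rose in DEN_WT against WT, by 3.48 in log2 units (SE 0.62, adjusted p = 0.00711 by edgeR), and this passed in all 15 alternatives run (adjusted p 8.99e-07 to 0.0457).

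Grb10, an adaptor that restrains insulin and IGF receptors (ENSMUSG00000020176; chromosome 11, 11830511 to 11938686, minus strand), had 28 and 33 counts in WT, 37, 65, 83 and 67 in PR-SET7_LOBE, with 122 and 153 in DEN_WT. In CPM it was at 2.68 and 3.04, at 3.47, 6.22, 7.71 and 6.10, and at 10.8 and 13.5. The lowest PR-SET7_LOBE library, replicate 1, was thus only just above WT, with a ratio of 1.21 and a counting interval of 0.784 to 1.85. Grb10 rose in DEN_WT against WT by 2.08 in log2 units (SE 0.53, adjusted p = 0.0340 by edgeR).

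Mest, a hydrolase of mesoderm (ENSMUSG00000051855; chromosome 6, 30673547 to 30698457, plus strand), was scarce. It had 4 and 1 counts in WT, 5, 14, 18 and 18 in PR-SET7_LOBE, with 75 and 32 in DEN_WT, or 0.383 and 0.0922, 0.470, 1.34, 1.67 and 1.64, and 6.64 and 2.83 CPM. The step from WT to PR-SET7_LOBE replicate 1 is within counting error, since its ratio of 2.00 has an interval of 0.460 to 8.69. Mest rose in DEN_WT against WT by 4.26 in log2 units (SE 0.98, adjusted p = 0.0223 by edgeR); Copg2 overlaps its end on the opposite strand, so its counts are uncertain.

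The calls of Grb10 and Mest were lost without any 1 of the WT or DEN_WT libraries (adjusted p 0.133 to 0.228 for Grb10 and 0.0636 to 0.181 for Mest). In PR-SET7_LOBE against WT the log2 differences were 2.41 for Peg3 (SE 0.56, adjusted p = 0.100), 1.03 for Grb10 (SE 0.47, adjusted p = 0.291) and 2.38 for Mest (SE 0.89, adjusted p = 0.234), all by edgeR. Without replicate 1 of PR-SET7_LOBE, Peg3 passed (2.52, adjusted p = 0.0268), Grb10 passed narrowly (1.22) and Mest did not pass (2.66, adjusted p = 0.0505); without any other single library the adjusted p was 0.124 or more for each. Against DEN_WT the PR-SET7_LOBE levels differed by -1.07, -1.05 and -1.88 on the log2 scale (adjusted p = 0.175, 0.148 and 0.103).

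The same ordering of the 3 groups with no overlap, a rule chosen after these values were seen, held for 181 of the 17362 genes, or 1.04%, and for 3 of the 10 members. The 3 genes lie on 3 chromosomes. Across the 8 libraries the log2 levels of Peg3 and Mest correlated at r = 0.900, of Grb10 and Mest at 0.913 and of Peg3 and Grb10 at 0.856, whereas Igf2 correlated with them at 0.119, -0.0747 and -0.00125 for Peg3, Grb10 and Mest. These values largely restate the order of the groups.

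The sum of 5 duct markers followed the same order, carried by 1 of them. Krt19, Krt7, Epcam, Sox9 and Spp1, all detected in every library, summed to 18.7 and 29.6 CPM in WT, 96.6 to 271 CPM in PR-SET7_LOBE, with 399 and 696 CPM in DEN_WT. Most of this was Spp1, a secreted protein, at 383 and 679 CPM in DEN_WT, and the duct keratin Krt19 was at 3.06 and 2.03 CPM in WT, 0.957 to 5.17 CPM in PR-SET7_LOBE, with 1.95 and 2.21 CPM in DEN_WT. Sox9, a transcription factor of duct cells, was at 7.56 and 3.50 CPM in WT, 17.8 to 48.7 CPM in PR-SET7_LOBE, with 11.2 and 12.1 CPM in DEN_WT, so it was highest in PR-SET7_LOBE. Krt7 was at 1.91 and 3.60, 1.11 to 3.94, and 1.51 and 1.68 CPM, and Epcam at 1.53 and 0.553, 1.05 to 5.17, and 1.51 and 1.41 CPM, and neither followed that order. Markers of dividing cells (Mki67, Top2a, Cdk1 and Ccnb1) summed to 2.11 and 2.12 CPM in WT, where Ccnb1 had 0 counts, to 9.67 to 41.3 CPM in PR-SET7_LOBE and to 17.2 and 21.3 CPM in DEN_WT. Stellate and fibroblast markers (Col1a1, Col1a2, Col3a1, Lrat, Des and Acta2), none at 0, summed to 47.6 and 50.6 CPM in WT. They summed to 165, 108, 72.9 and 54.5 CPM in PR-SET7_LOBE replicates 1 to 4 and to 237 and 91.9 CPM in DEN_WT. The sum was highest in replicate 1 of both groups, as was Meg3. Dlk1 was highest in replicate 1 of PR-SET7_LOBE, but had only 5 and 4 counts in DEN_WT. Replicate 4 of PR-SET7_LOBE had the lowest sum of its group but its next highest Meg3, at 41.6 CPM. None of the 6 stellate and fibroblast markers passed, and 3 of the 4 markers of dividing cells rose in DEN_WT. Spp1 was the only duct marker to pass, by edgeR. Its log2 difference from WT was 3.80 (adjusted p = 0.0411) in PR-SET7_LOBE and 5.43 (adjusted p = 0.00215) in DEN_WT. Pancreas markers (Prss2, Cela2a and Cpa1) summed to 6.29 CPM in PR-SET7_LOBE replicate 4 and to 0.928 CPM or less in every other library. Fat markers (Adipoq and Plin1) summed to 4.65 CPM in that replicate and to 0.650 CPM or less elsewhere. The part of all these cells in the levels of the imprinted genes was not tested.

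Phlda2, a small maternally expressed gene that limits placental growth (ENSMUSG00000010760; chromosome 7, 150687450 to 150688446, minus strand), formed another pattern. It had 2 and 1 counts in WT, 64, 59, 188 and 49 in PR-SET7_LOBE, with 56 and 34 in DEN_WT. In CPM it was at 0.191 and 0.0922, at 6.01, 5.64, 17.5 and 4.46, and at 4.96 and 3.00. Phlda2 was above WT in all 6 libraries outside WT, with replicate 3 of PR-SET7_LOBE, the lowest of the 6 for H19, in first place. That library also had the most genes with a count, 26437. The Phlda2 ratio to WT was 124 there (counting interval 41.7 to 606) and 21.3 in DEN_WT replicate 2 (6.70 to 108), the lowest of the 6.

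Cdkn1c, the maternally expressed cyclin-dependent kinase inhibitor p57 (ENSMUSG00000037664; chromosome 7, 150644255 to 150646955, minus strand), was highest in WT. It had 95 and 42 counts in WT, 71, 28, 22 and 25 in PR-SET7_LOBE, with 17 and 26 in DEN_WT, or 9.09 and 3.87, 6.67, 2.68, 2.04 and 2.28, and 1.51 and 2.30 CPM. PR-SET7_LOBE replicate 1 lay between the WT libraries, and the other 5 libraries outside WT lay below both. The log2 difference from WT was -0.92 in PR-SET7_LOBE (SE 0.60, adjusted p = 0.433 by edgeR) and -1.76 in DEN_WT (SE 0.74, adjusted p = 0.148). Without PR-SET7_LOBE replicate 1 these were -1.47 (adjusted p = 0.0714) and -1.76 (adjusted p = 0.0455). Without WT replicate 1, the higher of the WT libraries, they were -0.19 (adjusted p = 0.939) and -1.01 (adjusted p = 0.558).

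Cdkn1c and Phlda2 are neighbors in 1 imprinted cluster, and Cdkn1c was highest in WT, where Phlda2 was lowest. Of 12 other genes within 200 kb of them, 8 could be tested and none passed in edgeR in any comparison, with 1, 1 and 0 under an unadjusted p of 0.05 and 0 called by DESeq2; without PR-SET7_LOBE replicate 1, 1 passed in DEN_WT. The lowest adjusted p was that of Osbpl5, a lipid-transfer protein, in DEN_WT against WT (log2 difference -1.39, SE 0.59, adjusted p = 0.151). Tnfrsf23, a decoy death receptor, was highest in replicate 3 of PR-SET7_LOBE at 17.8 CPM, as Phlda2 was, against 4.10 to 6.22 CPM in the other 3.

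Plagl1, a paternally expressed zinc-finger transcription factor (ENSMUSG00000019817; chromosome 10, 12810497 to 12851500, plus strand), had 18 and 3 counts in WT, 4, 8, 15 and 39 in PR-SET7_LOBE, with 29 and 16 in DEN_WT. The CPM were 1.72 and 0.277, 0.376, 0.765, 1.39 and 3.55, and 2.57 and 1.41. All 3 groups overlapped, and replicate 1 of PR-SET7_LOBE, where H19, Igf2, Dlk1 and Meg3 were high, was the lowest of its group. No comparison passed in edgeR (adjusted p 0.575 to 0.817).

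**Figure D4:**
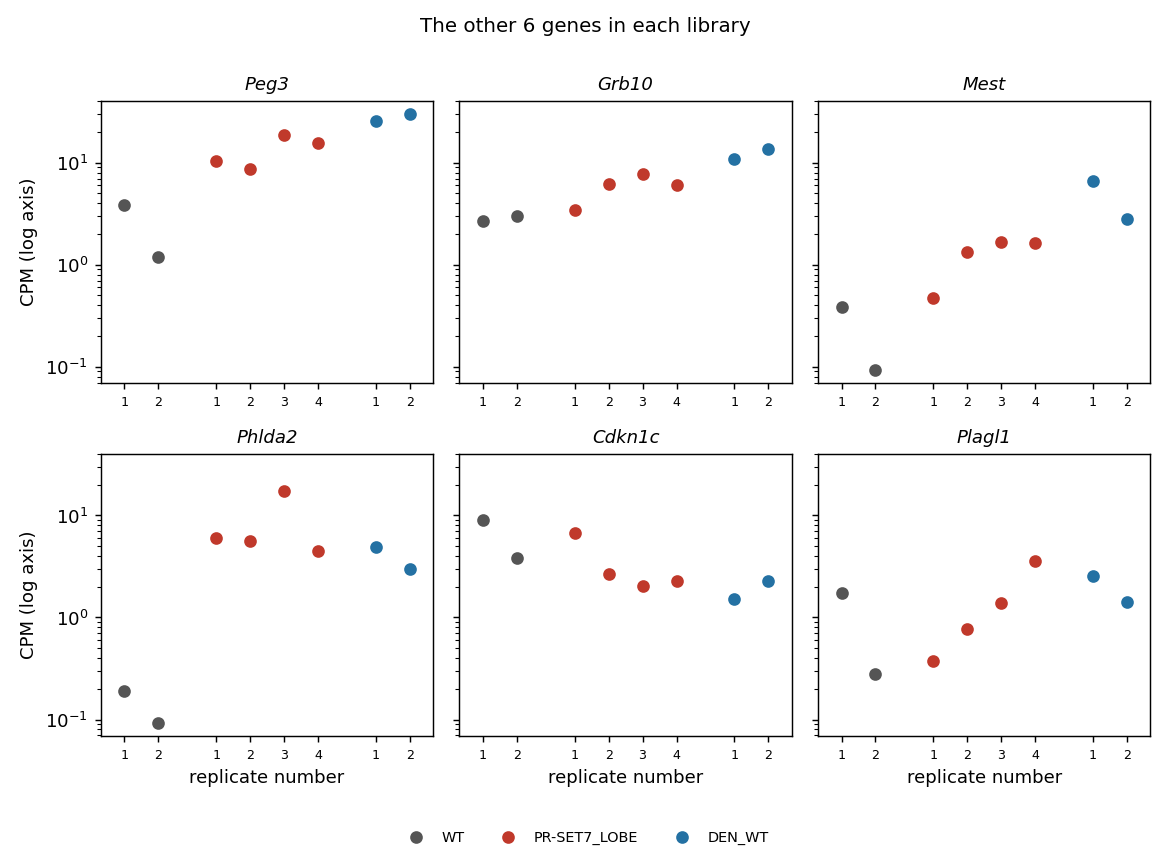
Level of Peg3, Grb10, Mest, Phlda2, Cdkn1c and Plagl1 in each library, in CPM on a log axis, 1 point per library with its replicate number below. Peg3, Grb10 and Mest step up from WT to PR-SET7_LOBE to DEN_WT without overlap, Phlda2 is above WT in all 6 other libraries, and Cdkn1c is below both WT libraries in 5 of them.

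Per kilobase of exon (lengths from GENCODE M21, another build, used for lengths only), the order of the genes differed between libraries. Cdkn1c was the most abundant of the 10 in both WT libraries, at 4.46 and 1.90 CPM per kb, and H19 was at 0.156 and 0.150. H19 came first in PR-SET7_LOBE replicates 1, 2 and 4 at 2829, 3816 and 44.1 CPM per kb, and in DEN_WT at 234 and 56.2. In replicate 3 Phlda2 led at 15.6 CPM per kb, ahead of H19 at 3.92. Igf2 followed H19 in replicates 1 and 2 at 423 and 355 CPM per kb, and was at 0.308 in replicate 3.

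Over the 7 genes given with a test, 0 passed in PR-SET7_LOBE against WT, where 0.150% of all genes passed upwards and 0.0979% downwards; 4 were under an unadjusted p of 0.05 and DESeq2 called 2, Meg3 and Peg3, and gave Dlk1 no adjusted p. In DEN_WT against WT 3 rose and 0 fell, beside 5.18% and 4.54% of all genes, and in PR-SET7_LOBE against DEN_WT 0 passed, beside 4.82% of all genes upwards and 6.26% downwards (11.1% in all), with 4 under an unadjusted p of 0.05 and 0 called by DESeq2. All 10 counted, 8 lay above WT without overlap in PR-SET7_LOBE, beside 11.6% of all genes, and in DEN_WT 8 lay above and 1 below, beside 37.8% and 33.3%. Against DEN_WT, PR-SET7_LOBE had 1 above (Dlk1) and 3 below (Peg3, Grb10 and Mest), beside 19.3% and 21.2%. The same 8, all but Cdkn1c and Plagl1, were above WT in both groups, as were 7.56% of all genes. The comparisons share the 2 WT libraries and the members were partly chosen on them, so nothing is read from these shares. The median log2 difference of the 10 was 2.95 in PR-SET7_LOBE and 2.96 in DEN_WT, or 2.27 with Dlk1 at its bound, beside 0.11 and 0.06 for all genes. Left-out libraries moved the count of the 10 passing in DEN_WT from 4 (Phlda2 included, beside 9.73% of all genes in either direction) to 1 without either WT library or DEN_WT replicate 1, to 2 without DEN_WT replicate 2 and to 7 without PR-SET7_LOBE replicate 1.

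In the IGF pathway, Igf1r and Igf2r passed no test while the binding protein Igfbp1 changed. Igf2 acts through Igf1r and Insr and is cleared by Igf2r, itself imprinted. Igf1r was at 2.49 and 1.11 CPM in WT, 2.54, 1.05, 1.39 and 2.28 CPM in PR-SET7_LOBE, with 0.620 and 0.618 CPM in DEN_WT, and Igf2r was at 40.4 to 71.9 CPM over all 8 libraries. Neither passed in any comparison (adjusted p 0.211 to 0.995). Igf1, the adult hepatic ligand, was at 475 and 399 CPM in WT, 204, 76.9, 121 and 202 CPM in PR-SET7_LOBE, with 363 and 305 CPM in DEN_WT; it was lowest in PR-SET7_LOBE without overlap, but did not pass (log2 difference from WT -1.53, SE 0.44, adjusted p = 0.158).

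Of 22 tested pathway genes outside the 10, edgeR called 0 in PR-SET7_LOBE against WT, with 6 under an unadjusted p of 0.05 and 3 called by DESeq2. In DEN_WT against WT edgeR called 2 higher, beside 5.18% of all genes. Without PR-SET7_LOBE replicate 1 edgeR called 4 in each of these comparisons with WT. Igfbp1, a secreted IGF-binding protein, was at 37.3 and 38.2 CPM in WT, 148, 197, 232 and 21.8 CPM in PR-SET7_LOBE, with 588 and 1248 CPM in DEN_WT, and rose in DEN_WT by 4.60 in log2 units (SE 0.95, adjusted p = 0.0145). Igf2bp3, an RNA-binding protein that binds Igf2 transcripts, had 0 counts in both WT libraries, 38, 9, 52 and 22 in PR-SET7_LOBE, with 20 and 6 in DEN_WT (adjusted p = 0.0388 for DEN_WT and 0.0863 for PR-SET7_LOBE). Both DEN_WT calls were lost without either WT library or without DEN_WT replicate 2, and that of Igf2bp3 also without DEN_WT replicate 1. Against DEN_WT, Igfbp1 was lower in PR-SET7_LOBE (-2.61, SE 0.68, adjusted p = 0.0322) and Igf2bp2 higher (2.90, SE 0.84, adjusted p = 0.0488); they passed in 11 and 4 of 15 alternatives, and each was lost without either DEN_WT library or PR-SET7_LOBE replicate 1. The Igfbp1 call was also lost without PR-SET7_LOBE replicate 2, and the Igf2bp2 call without either WT library or PR-SET7_LOBE replicate 3 or 4. The list's median log2 difference was 0.19, -0.39 and 0.78 in PR-SET7_LOBE against WT, DEN_WT against WT and PR-SET7_LOBE against DEN_WT, beside 0.11, 0.06 and 0.18 for all genes.

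Of 64 other imprinted genes listed, 51 were tested, and edgeR called 2 higher and 2 lower in DEN_WT against WT, beside 5.18% and 4.54% of all genes. Slc22a2, an organic cation transporter, fell from 86.8 and 78.8 CPM in WT to 2.66 and 3.80 CPM in DEN_WT (log2 difference -4.68, SE 0.74, adjusted p = 0.00392), a call that held in all 15 alternatives. Snrpn, a splicing protein that shares its transcript with Snurf, fell from 17.4 and 22.8 to 2.66 and 2.74 CPM (-2.89, SE 0.53, adjusted p = 0.00823), and was at 10.8, 7.27, 4.83 and 5.83 CPM in PR-SET7_LOBE. Sgce, a sarcoglycan, rose from 0.574 and 1.75 to 11.9 and 8.39 CPM (3.11, SE 0.82, adjusted p = 0.0375), and Rian is given above. Leaving out WT replicate 2 or DEN_WT replicate 1 ended the calls of Snrpn, Sgce and Rian, WT replicate 1 those of Sgce and Rian, and DEN_WT replicate 2 those of Snrpn and Sgce. The list's median log2 difference in DEN_WT was 0.15 (0.13 with genes at 0 in WT set to their bound), beside 0.06 for all genes, and 9 were called by DESeq2. Without PR-SET7_LOBE replicate 1 edgeR called 14.

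In PR-SET7_LOBE 0 of the 51 passed against WT, with 10 under an unadjusted p of 0.05 and 6 called by DESeq2, and the median log2 difference was 0.25. Without replicate 1 of PR-SET7_LOBE 6 passed. Against DEN_WT 3 were higher, beside 4.82% of all genes, with a median of 0.43. Slc22a2 differed by 3.80 (SE 0.68, adjusted p = 0.00489), lost without either DEN_WT library, and Rtl1 and Zrsr1, the latter with 1.34 and adjusted p = 0.0499, passed in 5 and 3 of 15 alternatives. The Zrsr1 call was lost without any 1 library other than PR-SET7_LOBE replicate 1.

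Genes of imprint maintenance and DNA methylation, 14 tested of 16, included Ctcfl, a paralog of the insulator protein that binds the H19 control region. Ctcfl fell in DEN_WT, at 3.63 and 2.03 CPM against 35.0 and 26.8 CPM in WT (log2 difference -3.44, SE 0.50, adjusted p = 0.00263, lost without DEN_WT replicate 2 at 0.0515), and was at 26.8 CPM or more in PR-SET7_LOBE, higher than in DEN_WT (3.66, SE 0.48, adjusted p = 0.00132). Zfp57, a zinc-finger protein that protects imprints, was at 1.91 and 1.20 CPM in WT, 1.09 to 2.91 CPM in PR-SET7_LOBE, with 5.58 and 8.66 CPM in DEN_WT, and was lower in PR-SET7_LOBE than in DEN_WT (-1.95, SE 0.54, adjusted p = 0.0409, passed in 8 of 15 alternatives). Leaving out WT replicate 1, PR-SET7_LOBE replicate 2, 3 or 4 or either DEN_WT library ended that call. Against WT none of the 14 passed in PR-SET7_LOBE, with 2 under an unadjusted p of 0.05 and 1 called by DESeq2. Without PR-SET7_LOBE replicate 1, 2 of the 14 passed in that group against WT and 4 in DEN_WT, where 2 passed without PR-SET7_LOBE replicate 3. The medians were 0.38, 0.30 and 0.39 in the 3 comparisons.

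Afp and Gpc3, fetal liver genes that are silenced after birth like H19, differed from it in being highest in DEN_WT. Afp was at 2.49 CPM in both WT libraries, 8.92, 32.1, 4.83 and 6.56 CPM in PR-SET7_LOBE, with 102 and 109 CPM in DEN_WT. Gpc3 was at 1.15 and 2.49, 9.11, 9.57, 6.87 and 18.5, and 91.5 and 113 CPM. Both were thus highest in DEN_WT, where H19 was intermediate, and neither reached the DEN_WT level in replicate 1 or 2 of PR-SET7_LOBE. Within PR-SET7_LOBE, Afp had the same order of libraries as H19 over a much narrower range, and Gpc3 was highest in replicate 4.

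Afp and Gpc3 rose in DEN_WT against WT (log2 differences 5.40, SE 0.91, adjusted p = 0.00539, and 5.80, SE 0.65, adjusted p = 0.00166, by edgeR) and were lower in PR-SET7_LOBE than in DEN_WT (-3.01, SE 0.62, adjusted p = 0.0105, and -3.21, SE 0.44, adjusted p = 0.00143). Both Gpc3 calls held in all 15 alternatives; Afp lost the first without WT replicate 1 (adjusted p = 0.0582) and the second without DEN_WT replicate 2 (0.0598). With Igf2bp3 they make 3 of 6 tested genes of this list higher in DEN_WT against WT, beside 5.18% of all genes. The list was chosen with earlier results of these data known, so its count is a description. In PR-SET7_LOBE against WT 0 passed, with 3 under an unadjusted p of 0.05 and 3 called by DESeq2 (2 passed without PR-SET7_LOBE replicate 1). The medians were 2.49 against WT in PR-SET7_LOBE and 2.83 in DEN_WT, or 1.64 with Igf2bp3 at its bound. Zbtb20, a postnatal repressor of Afp, was at 25.4 to 62.0 CPM over the 8 libraries.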

How the data were processed

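Poly(A)-selected liver RNA was fragmented with RNase III and sequenced on an Ion Proton, per the labels' protocols. The authors deposited whole-number read counts per gene for all 8 libraries. TopHat2 2.0.9, Cufflinks, DESeq and build mm9 are named in the submitters' processing notes; the counting tool, annotation, strand setting and treatment of multiply mapped reads were not found in the sources at hand. Replicate libraries differed by more than sampling noise (chi-square per degree of freedom 27.4 or more), with the deposited counts taken as unscaled reads.

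Counts of all 8 libraries entered 1 edgeR 4.0.16 fit (limma 3.58.1, R 4.3.3; TMM scaling, filterByExpr, robust quasi-likelihood, group as the only term), with Benjamini-Hochberg adjustment over 17362 genes and a threshold of 0.05. Log2 CPM used a prior count of 2. The alternatives were RLE and upper-quartile scaling, DESeq2 1.42.0, no filter, a strict filter (5 CPM in 2 libraries), the compared groups alone, a replicate block and each library left out. On simulated counts the fit recovered 32, 23 and 32 of 100 genes changed 4-fold and 99, 89 and 91 of 100 changed 16-fold, in PR-SET7_LOBE against WT (16139 genes), DEN_WT against WT (16113) and PR-SET7_LOBE against DEN_WT (16071). It also called 12, 9 and 8 unchanged genes. The changed genes had means above 2 CPM and shifted alike in all libraries of a group, so recovery of scarcer genes or of split groups was not tested.

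The 10 genes, the gene lists and the rule for named genes were chosen with earlier results of these data known. That rule names the 10 genes, up to 4 genes per list by smallest adjusted p, the 5 genes most correlated with H19 and with Igf2, and list genes a comparison turns on. The lists share genes.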

Additional observations from a re-analysis of the deposited data

Results flagged for a closer look

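In 4 of the 10 genes, 1 PR-SET7_LOBE library stood far from the other 3, with a gap to its nearest neighbor, as a share of the group's range, above Dixon's critical value at the 95% level; chance alone gives about 1 such group in 20, but on CPM, as used here, 9.07% of the 17362 tested genes met the same rule in this group. The 10 genes were chosen with these values known, so their count is a description. Replicate 1 was apart for Dlk1 (53.0 CPM, gap 0.955 of the range), for Meg3 (184 CPM, 0.839) and for Cdkn1c (6.67 CPM, 0.862). Replicate 3 was apart for Phlda2 (17.5 CPM, 0.881). H19 and Igf2, with the widest ranges, did not meet this rule (0.259 and 0.161), since 2 libraries were high in each. The groups of 2 libraries are too small for it.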

How the results depend on the processing

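Counts of called genes moved more than levels did. Over all genes, 43 were called in PR-SET7_LOBE against WT, 66 with upper-quartile scaling, 419 without a filter, 19 with the 2 groups alone, 927 by DESeq2, and 1 to 2392 with a library left out (1 without WT replicate 2, 2392 without PR-SET7_LOBE replicate 1). In DEN_WT against WT, 1689 became 5643 with the 2 groups alone, 3144 by DESeq2, and 329 (without DEN_WT replicate 2) to 4549 (without PR-SET7_LOBE replicate 1). In PR-SET7_LOBE against DEN_WT, 1924 became 454 (without DEN_WT replicate 2) to 2662. Upper-quartile scaling moved the median of all genes in the first comparison from 0.11 to 0.29 and the share of calls that were higher from 60.5% to 71.2%; no direction of the 10 genes changed with scaling. The cause of these shifts was not tested.

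The next counts include H19, Igf2 and Phlda2, which were chosen on these values, so nothing is read from them. Of the 10 genes, 1 (Phlda2) was called in PR-SET7_LOBE against WT, 2 without a filter, 0 with the 2 groups alone, 5 by DESeq2 and 0 to 5 with a library left out. In DEN_WT against WT, 4 became 1 to 7 with a library left out. In PR-SET7_LOBE against DEN_WT, 0 became 1 by DESeq2 and 0 to 2. Plagl1 changed sign, at -0.12 without WT replicate 2 and -0.21 without PR-SET7_LOBE replicate 4, both against WT (range -0.21 to 2.40 over left-out libraries), and at 0.07 against DEN_WT without DEN_WT replicate 1 (range -1.18 to 0.07).

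The list counts follow in the order PR-SET7_LOBE against WT, DEN_WT against WT and PR-SET7_LOBE against DEN_WT. For the IGF pathway, 0 became 2 without a filter, 3 by DESeq2 and 0 to 4 with a library left out; 2 became 4 without a filter, 1 with the strict filter, 6 with the 2 groups alone, 4 by DESeq2 and 0 to 4; 2 became 1 with RLE scaling, the strict filter or the 2 groups alone and 0 to 3. For other imprinted genes, 0 became 3 without a filter, 6 by DESeq2 and 0 to 6; 4 became 8 without a filter, 13 with the 2 groups alone, 9 by DESeq2 and 1 to 14; 3 became 1 with the strict filter or the 2 groups alone, 6 by DESeq2 and 0 to 4. For imprint maintenance, 0 became 1 by DESeq2 and 0 to 2; 1 became 5 with the 2 groups alone, 2 by DESeq2 and 0 to 4; 2 became 1 to 3. For fetal liver genes, 0 became 2 without a filter, 3 by DESeq2 and 0 to 2; 3 became 1 to 3; 2 became 1 to 2. For neighbors of H19 and Igf2, 0 became 1 by DESeq2; 0 became 1 with the 2 groups alone and 0 to 1; 1 became 0 with the strict filter or the 2 groups alone, 2 by DESeq2 and 0 to 2. For neighbors of Dlk1 and Meg3, 0 became 1 without a filter, 2 by DESeq2 and 0 to 1; 1 became 2 without a filter or by DESeq2 and 0 to 2; 1 became 0 with the strict filter or the 2 groups alone and 0 to 1. For neighbors of Cdkn1c and Phlda2 in DEN_WT, 0 became 1 with the 2 groups alone and 0 to 1. Where a library left out leaves 1 in its group, that library is assumed to vary like the others.

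The replicate numbers are not stated to pair libraries, and deviations from the group means of same-numbered libraries correlated at -0.00874 to 0.165. With the number as a block, over the libraries numbered 1 and 2 only, the calls over all genes were 204 and 3168 in the comparisons of PR-SET7_LOBE and DEN_WT with WT, and those of the 10 genes were 4 in PR-SET7_LOBE against WT and 4 against DEN_WT. In the block fit, Plagl1 was at -0.43 in PR-SET7_LOBE against WT. The block gave 7 calls of other imprinted genes and 2 of imprint maintenance in DEN_WT, 2 of fetal liver genes in PR-SET7_LOBE against WT, 1 and 3 of neighbors of H19 and Igf2 against WT and DEN_WT, and 2 (DEN_WT against WT) and 0 (PR-SET7_LOBE against DEN_WT) of neighbors of Dlk1 and Meg3.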
